A study of Homo sapiens with 6 samples.

Results

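The 34 genes described here encode the enzymes that build cholesterol and fatty acids, and the proteins that switch those enzymes on and off. They were taken by symbol from the table of gene counts, and all 34 were found among its 61487 gene IDs. All 34 also passed the filter on low counts. By role, 5 control the pathway, 7 belong to the mevalonate branch, and 11 make squalene and carry it to cholesterol. A further 1 transfers sterol, and 10 make, desaturate, elongate or activate fatty acids. The cells were H2170, an established line of human lung squamous cell carcinoma, grown in medium with fetal bovine serum. The 3 groups expressed ACK1 (IDRmut)-GFP (IDRmut, 2 libraries), ACK1 (WT)-GFP (WT, 2 libraries) or GFP alone (Control, 2 libraries), so GFP was common to all of them. The kinase ACK1 is the product of TNK2. The study set out to examine gene regulation by ACK1 condensates. The sources used here give neither the residues altered in IDRmut nor the promoter that drives the transgene, nor whether a group was 1 clone.

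Sterol and fatty acid synthesis share a transcriptional switch. The SREBP proteins are made from SREBF1 and SREBF2 as membrane-bound precursors; SCAP carries them from the endoplasmic reticulum to the Golgi, where they are cleaved, and INSIG1 and INSIG2 hold SCAP back when sterol is plentiful. The released fragment enters the nucleus and binds target promoters, usually beside NF-Y, with SREBF2 leaning towards sterol genes and SREBF1 towards fatty acid genes; INSIG1 is itself a target. Growing tumour cells draw on this pathway for membrane lipid.

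TNK2 stood at 1762 and 1455 CPM (counts per 1000000 of the scaled library) in IDRmut, 3514 and 3613 CPM in WT and 41.1 and 43.1 CPM in Control. Its level was therefore lower in IDRmut than in WT (log2 fold change -1.15, edgeR adjusted p = 2.8e-10), and every difference between those groups below was measured together with that difference. Reads of the transgene and of the cells' own TNK2 cannot be told apart. Libraries held between 19128111 and 33540998 counts. Replicates of IDRmut differed more than those of the other groups: over the 34 genes the median absolute log2 difference between replicates was 0.092 in IDRmut, 0.035 in WT and 0.027 in Control. Whether the replicates were separate cultures is not stated; the p-values therefore rest on a spread that may be technical. In bulk RNA, fewer cells of a type and less RNA per cell cannot be told apart.

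The genes moved in both directions: 7 of the 11 sterol branch genes were among those that rose in WT, and SREBF1, SCAP and SCD were among those that fell in both ACK1 groups. In IDRmut against Control, 8 of the 34 rose and 10 fell, 52.9% in all, beside 31.6% of all 16591 genes tested (15.6% higher and 15.9% lower). In WT against Control, 16 rose and 7 fell, 67.6% in all, beside 35.0% of all genes tested (17.4% higher and 17.6% lower). In IDRmut against WT, 3 were higher and 12 lower, 44.1% in all, beside 26.5% of all genes tested (12.3% higher and 14.2% lower). Calls here are genes with a Benjamini-Hochberg adjusted p under 0.05 over all genes tested, from the quasi-likelihood test of edgeR. Well-expressed genes are called more often: among the 10057 genes whose mean reached 8 CPM, which takes in all 34, the shares called were 39.2% in IDRmut against Control (16.1% higher, 23.1% lower), 42.3% in WT against Control (17.2% higher, 25.1% lower) and 33.9% in IDRmut against WT (16.1% higher, 17.8% lower). Single libraries moved some of these counts: without the first Control library 6 genes fell in IDRmut and 10 rose in WT, without the first IDRmut library 11 fell in WT, and in IDRmut against WT 6 were lower without the second WT library and 5 higher without the second IDRmut library.

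The changes were small. No gene of the 34 passed 2-fold in any comparison, and 2 passed 1.5-fold, SREBF1 and ELOVL6, both lower in WT than in Control; 15.9% of all genes tested passed 1.5-fold there. The median log2 fold change of the 34 genes was -0.0094 in IDRmut against Control, 0.084 in WT against Control and -0.072 in IDRmut against WT, while over all genes tested the medians were 0.0040, 0.0017 and -0.00068 in that order. The sign of the median in IDRmut against Control changed with upper-quartile scaling (0.022), without the second IDRmut library (0.028) and without the second Control library (0.0070). Regardless of sign, the median size was 0.149 in IDRmut against Control, 0.208 in WT against Control and 0.120 in IDRmut against WT, against 0.180, 0.183 and 0.154 over all genes. Replicates of the compared groups did not overlap for 24 of the 34 genes in IDRmut against Control, beside 63.3% of all genes tested and 68.3% of those that reached 8 CPM. In WT against Control they did not overlap for 30 of 34, beside 69.2% and 75.6%, and in IDRmut against WT for 23 of 34, beside 61.5% and 67.1%. In IDRmut against Control and in IDRmut against WT the count for the 34 genes is near that background.

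**Figure D1:**
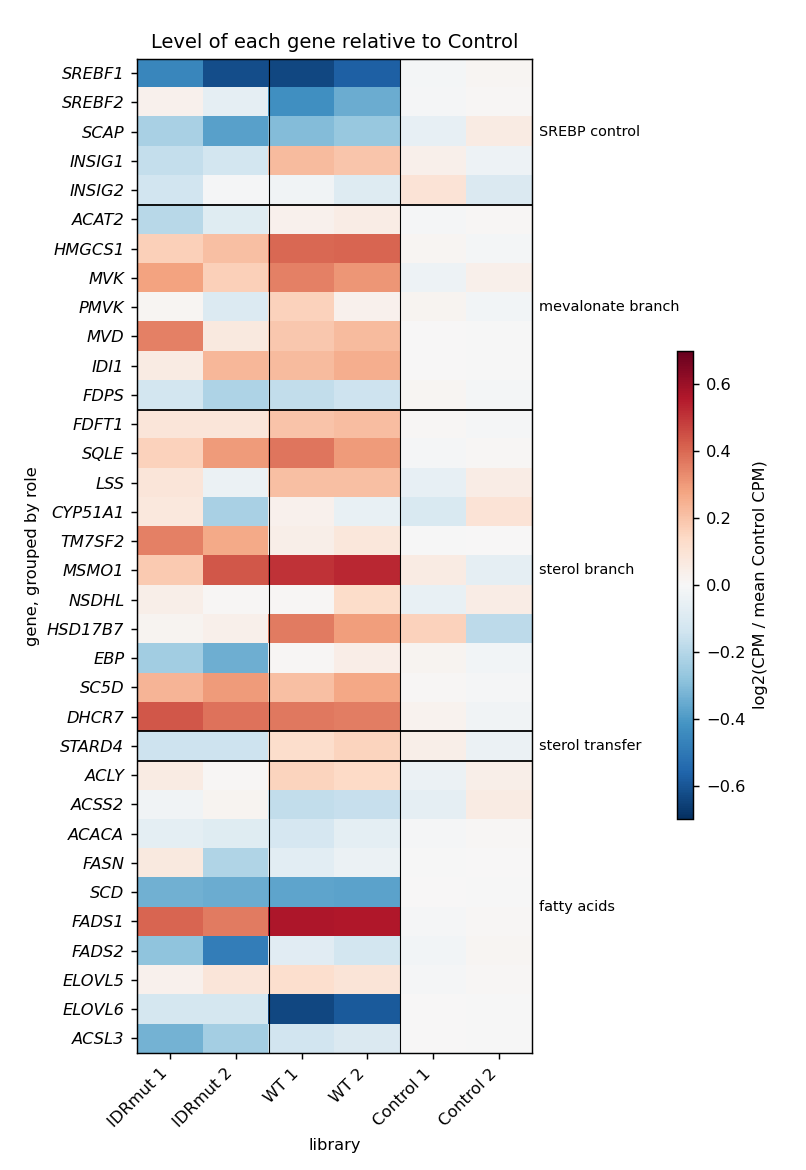
Level of each of the 34 genes (rows, grouped by role) in each of the 6 libraries (columns), as log2 of CPM over the mean CPM of Control, on a colour scale from -0.7 (blue) to 0.7 (red). SREBF1 and SCD are low in all 4 ACK1 libraries, FADS1 and DHCR7 are high in all 4, and SREBF2 and ELOVL6 are low in WT and close to Control in IDRmut.

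Promoters of the genes with the largest changes, and of the only gene with a match to the SREBP element, are shown because SREBP and NF-Y act through these letters. Windows run from 250 bases before the start of transcription to 50 bases after it (RefSeq, GRCh38.p14), and 30 of the 34 genes had at least 1; FDFT1, FASN, SQLE and ACAT2 were not matched. Motifs were searched on both strands as the SREBP element TCACNCCAC, the NF-Y box CCAAT, the E-box CACGTG and the GC box GGGCGG, and none of these letter strings contains another; 9 genes had more than 1 window, and a gene was counted when any of its windows held the motif. Capitals mark the SREBP element and NF-Y boxes, which read ATTGG where they lie on the other strand.
SREBF2, chr22:41832855-41833154, plus strand: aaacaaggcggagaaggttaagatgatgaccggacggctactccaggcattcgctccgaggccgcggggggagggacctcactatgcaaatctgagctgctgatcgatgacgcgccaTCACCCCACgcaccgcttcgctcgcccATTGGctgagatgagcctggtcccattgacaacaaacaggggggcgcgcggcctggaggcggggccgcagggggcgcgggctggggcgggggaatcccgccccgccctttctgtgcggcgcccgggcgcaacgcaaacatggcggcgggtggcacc
SREBF1, chr17:17836937-17837236, minus strand: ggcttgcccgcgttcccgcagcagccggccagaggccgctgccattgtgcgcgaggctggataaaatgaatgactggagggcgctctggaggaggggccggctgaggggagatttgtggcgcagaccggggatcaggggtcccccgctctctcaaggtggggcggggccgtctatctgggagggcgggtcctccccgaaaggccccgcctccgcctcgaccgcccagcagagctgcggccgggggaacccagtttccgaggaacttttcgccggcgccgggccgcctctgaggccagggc
MSMO1, chr4:165327419-165327718, plus strand: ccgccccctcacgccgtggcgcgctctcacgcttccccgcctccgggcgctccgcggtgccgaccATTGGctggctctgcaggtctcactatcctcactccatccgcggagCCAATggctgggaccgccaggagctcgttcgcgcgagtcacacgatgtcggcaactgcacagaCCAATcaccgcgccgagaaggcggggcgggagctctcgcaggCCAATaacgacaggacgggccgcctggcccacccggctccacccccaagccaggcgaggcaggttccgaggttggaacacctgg
FADS1, chr11:61816954-61817253, minus strand: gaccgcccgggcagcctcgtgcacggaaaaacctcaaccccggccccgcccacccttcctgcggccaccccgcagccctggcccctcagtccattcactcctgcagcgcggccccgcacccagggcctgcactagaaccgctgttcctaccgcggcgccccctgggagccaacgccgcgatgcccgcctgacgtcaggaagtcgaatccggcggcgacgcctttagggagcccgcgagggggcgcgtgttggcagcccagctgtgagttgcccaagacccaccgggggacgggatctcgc
ELOVL6, chr4:110198566-110198865, minus strand: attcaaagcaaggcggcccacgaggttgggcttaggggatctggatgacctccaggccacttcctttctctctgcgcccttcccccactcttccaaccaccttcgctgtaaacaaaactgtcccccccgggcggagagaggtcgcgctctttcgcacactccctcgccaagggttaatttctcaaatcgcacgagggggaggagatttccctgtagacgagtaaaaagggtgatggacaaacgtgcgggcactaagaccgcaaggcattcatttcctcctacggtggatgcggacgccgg
SREBF2 had an SREBP element that begins at position -133 from the start, and an NF-Y box at position -106. MSMO1 held 4 NF-Y boxes, 3 on the coding strand, whereas the windows of SREBF1, FADS1 and ELOVL6 held none.

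Across the 30 genes with a window, the SREBP element was found in 1 (3.33%), beside 1.39% of the 27305 genes with a window in the reference. The NF-Y box was found in 23 (76.7%, beside 39.7% of all), the E-box in 5 (16.7%, beside 8.77%) and the GC box in 28 (93.3%, beside 48.3%). The 27305 genes were not limited to those expressed in these cells, whereas the genes described here all reached 8 CPM. No share among genes of similar level was computed, and the part of expression level in these gaps was not tested. Of the 14 genes with a window that rose in WT against Control, 13 held an NF-Y box, the exception being FADS1. Of the 7 that fell, 4 held it, and of the 9 not called, 6 did. In IDRmut against Control the box was present in 6 of 7 that rose, in 6 of 9 that fell and in 11 of 14 not called. A match describes letters in the window and does not show binding. Only these exact strings were searched, so a site with other letters or outside the window would be missed. A gene without a match to the SREBP element is therefore not shown to lack an SREBP site.

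Of the 5 regulators, SREBF1 and SCAP fell in both ACK1 groups and INSIG2 was called in neither. SREBF2 and INSIG1 differed between IDRmut and WT. In IDRmut, 3 of 5 fell (SREBF1, SCAP and INSIG1) and none rose. In WT, 3 of 5 fell (SREBF1, SREBF2 and SCAP) and INSIG1 rose. Over all genes tested, 15.9% fell in IDRmut and 17.6% in WT, and of those that reached 8 CPM 23.1% and 25.1%. SREBF1, the precursor gene for the fatty acid branch, was at 274 and 245 CPM in IDRmut, 242 and 253 CPM in WT and 373 and 379 CPM in Control. All 4 ACK1 libraries lay below both Control libraries, and those of IDRmut and WT overlapped. The log2 fold change was -0.54 ± 0.046 (edgeR adjusted p = 1.1e-07) in IDRmut against Control and -0.60 ± 0.046 (edgeR adjusted p = 1.6e-08) in WT against Control. The difference between IDRmut and WT did not pass (log2 fold change 0.067 ± 0.046, edgeR adjusted p = 0.317, 95% interval -0.030 to 0.17). Without the second IDRmut library it was 0.15 (adjusted p = 0.0027; 0.0027 to 0.84 over the 14 alternatives).

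SREBF2, the precursor gene for the sterol branch and the holder of the SREBP element shown above, was at 311 and 291 CPM in IDRmut, 226 and 239 CPM in WT and 303 and 306 CPM in Control. Only the WT libraries were low, and those of IDRmut lay on either side of Control. In IDRmut against Control the log2 fold change was -0.017 ± 0.041 (edgeR adjusted p = 0.792), with a 95% interval of -0.10 to 0.069, whereas in WT it fell to 0.765 of the Control level (-0.39 ± 0.041, edgeR adjusted p = 1.1e-06). It was higher in IDRmut than in WT (log2 fold change 0.37 ± 0.041, edgeR adjusted p = 3.1e-06).

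INSIG1, which retains the SREBP precursors and is itself switched on by SREBP, was at 72.8 and 74.7 CPM in IDRmut, 95.4 and 93.5 CPM in WT and 83.6 and 79.8 CPM in Control. The 3 groups did not overlap, with WT highest and IDRmut lowest. The log2 fold change was -0.15 ± 0.047 (edgeR adjusted p = 0.0237) in IDRmut against Control, 0.21 ± 0.045 (edgeR adjusted p = 0.00168) in WT against Control and -0.36 ± 0.045 (edgeR adjusted p = 1.6e-05) in IDRmut against WT. It was the only one of the 34 genes called lower in IDRmut and higher in WT against the same Control. The fall in IDRmut was no longer called with upper-quartile scaling, with DESeq2, in a fit of those 2 groups alone or without the first Control library (adjusted p = 0.2 there, 0.0038 to 0.2 over the 14 alternatives).

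SCAP, the escort of the precursors, was at 126 and 113 CPM in IDRmut, 119 and 122 CPM in WT and 141 and 153 CPM in Control. Both ACK1 groups lay below Control and overlapped each other. It fell by 0.30 on the log2 scale in IDRmut (edgeR adjusted p = 0.000233) and by 0.28 in WT (edgeR adjusted p = 0.000316). INSIG2, the second retention protein, was at 12.3 and 13.5 CPM in IDRmut, 13.3 and 12.7 CPM in WT and 14.5 and 12.6 CPM in Control, with overlapping groups and log2 fold changes of -0.069 ± 0.097 (edgeR adjusted p = 0.64) in IDRmut and -0.064 ± 0.094 (edgeR adjusted p = 0.64) in WT against Control.

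**Figure D2:**
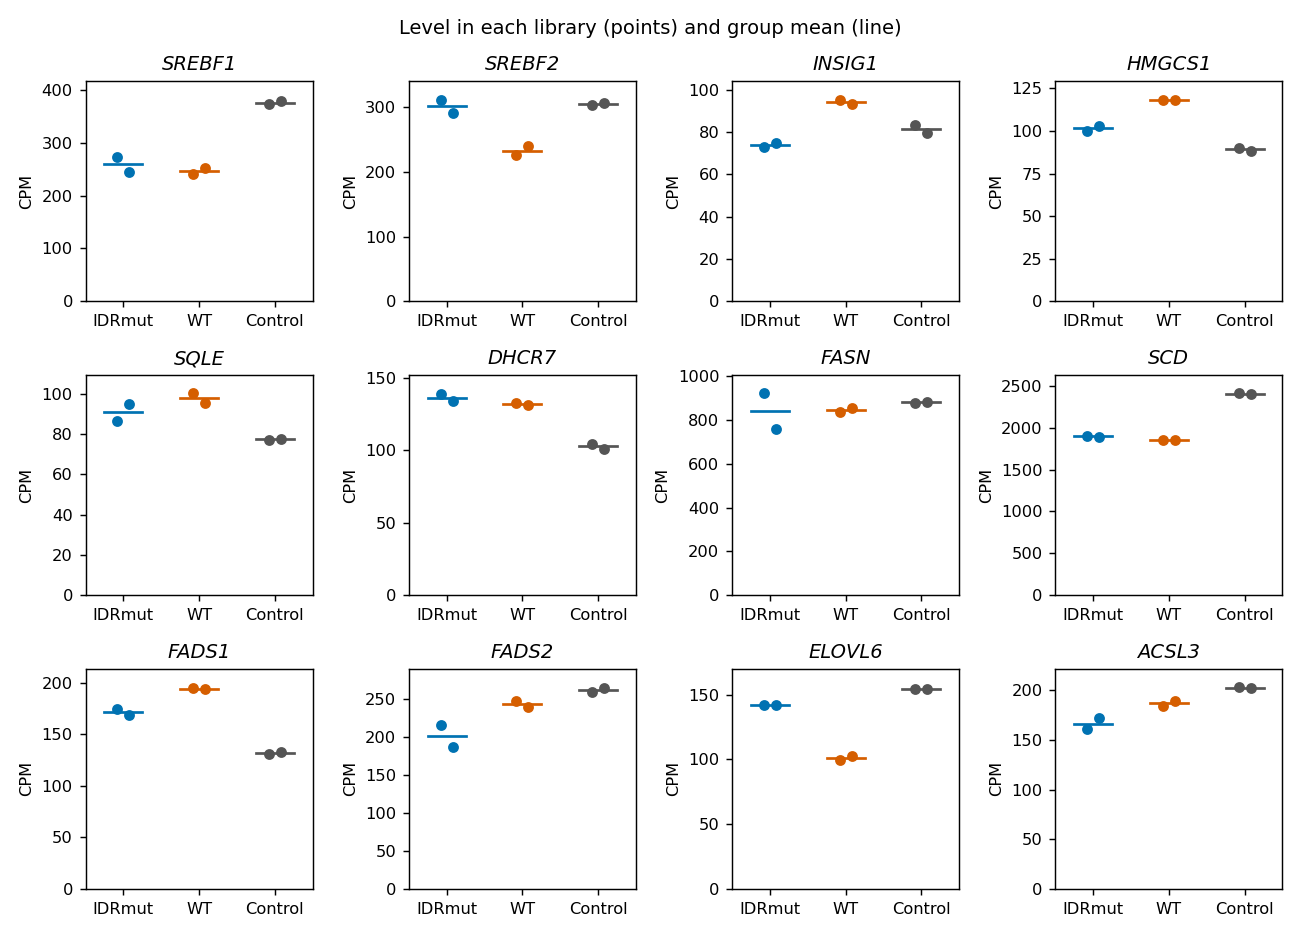
Level in CPM (vertical axis, from 0) of 12 genes in each library (points; 2 per group) with the group mean (line), for IDRmut, WT and Control from left to right. INSIG1 is lowest in IDRmut and highest in WT, SREBF2 and ELOVL6 are low in WT, and the FASN libraries of IDRmut lie on either side of the other groups.

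In the mevalonate branch, which turns acetyl-CoA into farnesyl diphosphate, 2 of 7 genes rose in IDRmut (HMGCS1 and MVK) and 2 fell (ACAT2 and FDPS). In WT, 4 rose (HMGCS1, MVK, MVD and IDI1) and 1 fell (FDPS). By comparison, 15.6% of all genes tested rose and 15.9% fell in IDRmut, and 17.4% and 17.6% in WT. Of those that reached 8 CPM, 16.1% rose and 23.1% fell in IDRmut, and 17.2% and 25.1% in WT. HMGCS1, the synthase that makes HMG-CoA, was at 100.2 and 103 CPM in IDRmut, 118 and 118 CPM in WT and 89.9 and 88.4 CPM in Control. The groups did not overlap, in the order WT, IDRmut, Control. It rose in IDRmut (log2 fold change 0.19 ± 0.043, edgeR adjusted p = 0.00283) and in WT (0.41 ± 0.042, edgeR adjusted p = 8.2e-07), and was lower in IDRmut than in WT (-0.22 ± 0.041, edgeR adjusted p = 0.000784).

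MVK, the kinase that phosphorylates mevalonate, was at 19.7 and 18.2 CPM in IDRmut, 20.7 and 20.1 CPM in WT and 15.8 and 16.6 CPM in Control. Both ACK1 groups lay above Control without overlap. Its log2 fold change was 0.22 ± 0.082 (edgeR adjusted p = 0.0454) in IDRmut and 0.33 ± 0.078 (edgeR adjusted p = 0.00336) in WT against Control; the call in IDRmut was lost under 9 of the 14 alternatives, among them leaving out either Control library, either WT library or the first IDRmut library (adjusted p 0.023 to 0.24 over the 14), and that in WT was lost without the first Control library (adjusted p = 0.052; 0.00074 to 0.052 over the 14). IDI1, the isomerase of the isoprenoid units, was at 60.0 and 67.9 CPM in IDRmut, 67.4 and 68.8 CPM in WT and 57.9 and 57.6 CPM in Control. WT was above Control throughout, and the libraries of IDRmut ran from near Control to within WT. In IDRmut the log2 fold change was 0.15 ± 0.058 (edgeR adjusted p = 0.0593), and in WT it rose by 0.24 ± 0.056 (edgeR adjusted p = 0.0031). Without the first IDRmut library the value of IDRmut was 0.23 (adjusted p = 0.0008; 0.0008 to 0.51 over the 14 alternatives).

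ACAT2, the thiolase that opens the branch, was at 67.0 and 72.4 CPM in IDRmut, 78.6 and 79.5 CPM in WT and 76.4 and 77.2 CPM in Control. IDRmut was the low group. It fell by 0.14 on the log2 scale in IDRmut against Control (edgeR adjusted p = 0.0434), a call that 11 of the 14 alternatives ended, leaving out any 1 library other than the second of IDRmut among them (adjusted p 0.0038 to 0.21). It was lower in IDRmut than in WT (log2 fold change -0.18 ± 0.048, edgeR adjusted p = 0.00989), a call lost without the second WT library or the first IDRmut library (adjusted p 0.00051 to 0.12 over the alternatives). SOD2, TCP1 and a further gene share 52.3% of its exon bases, and the strand setting of the counting is not given in the sources used here.

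FDPS, the farnesyl diphosphate synthase, changed by -0.17 ± 0.049 on the log2 scale (edgeR adjusted p = 0.0127) in IDRmut and -0.16 ± 0.048 (edgeR adjusted p = 0.0176) in WT; RUSC1-AS1 overlaps 18.6% of its exon bases. The first of these calls was lost with DESeq2 and without the first Control or the second IDRmut library (adjusted p 0.00034 to 0.1 over the alternatives), and the second was lost with upper-quartile scaling, with DESeq2 and when any 1 Control or WT library was left out (0.00037 to 0.13). MVD, the decarboxylase, gave 0.21 ± 0.081 on the log2 scale (edgeR adjusted p = 0.0541) in IDRmut and 0.21 ± 0.078 (edgeR adjusted p = 0.0473) in WT. The WT call was lost with DESeq2 and when any 1 Control or WT library was left out (adjusted p 0.0015 to 0.21 over the alternatives), and MVD was called in IDRmut without the second IDRmut library, among other alternatives (0.00039 to 0.55). PMVK, the next kinase, was not called in any comparison, with log2 fold changes between -0.13 and 0.087.

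The branch through squalene to cholesterol, with 11 genes the largest role group, held the largest count of rises. In IDRmut 5 of 11 genes rose (SQLE, TM7SF2, MSMO1, SC5D and DHCR7) and EBP fell. In WT 7 of 11 rose (FDFT1, SQLE, LSS, MSMO1, HSD17B7, SC5D and DHCR7) and none fell. The mevalonate branch had rises in 2 of 7 genes in IDRmut and 4 of 7 in WT. Over all genes tested, 15.6% were called higher in IDRmut and 17.4% in WT. Summed over the 11 genes, the level was 644 and 647 CPM in IDRmut, 677 and 680 CPM in WT and 568 and 566 CPM in Control.

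SQLE, the epoxidase that commits squalene to sterol, was at 86.6 and 95.1 CPM in IDRmut, 100.3 and 95.3 CPM in WT and 77.2 and 77.8 CPM in Control. All 4 ACK1 libraries lay above both Control libraries. It rose 1.17-fold in IDRmut (log2 fold change 0.23 ± 0.052, edgeR adjusted p = 0.00252) and 1.26-fold in WT (0.33 ± 0.051, edgeR adjusted p = 6.4e-05). Between IDRmut and WT the value was -0.10 ± 0.049 on the log2 scale (edgeR adjusted p = 0.145), and without the second IDRmut library it was -0.17 (adjusted p = 0.0083; 0.0083 to 0.69 over the 14 alternatives).

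DHCR7, the reductase of the last step to cholesterol, was at 139 and 134 CPM in IDRmut, 133 and 131 CPM in WT and 104 and 101 CPM in Control. Control was the low group and both ACK1 groups were close together. The rise was 0.41 ± 0.042 on the log2 scale (edgeR adjusted p = 1.1e-06) in IDRmut and 0.36 ± 0.042 (edgeR adjusted p = 2.9e-06) in WT, and the difference between IDRmut and WT did not pass (95% interval -0.039 to 0.13). SC5D, the desaturase just before it, was at 72.9 and 76.2 CPM in IDRmut, 71.6 and 74.5 CPM in WT and 62.2 and 61.5 CPM in Control. Its ACK1 groups overlapped each other and lay above Control. It rose by 0.27 ± 0.049 on the log2 scale (edgeR adjusted p = 0.000454) in IDRmut and 0.24 ± 0.048 (edgeR adjusted p = 0.000801) in WT.

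MSMO1, the methylsterol oxidase whose promoter holds 4 NF-Y boxes, was at 43.5 and 51.8 CPM in IDRmut, 54.5 and 55.2 CPM in WT and 39.9 and 36.7 CPM in Control. WT was highest without overlap, and the first IDRmut library lay nearer to Control than to the second IDRmut library. It rose 1.24-fold in IDRmut (log2 fold change 0.32 ± 0.074, edgeR adjusted p = 0.00335) and 1.43-fold in WT (0.52 ± 0.071, edgeR adjusted p = 2e-05). The rise in IDRmut was lost without the second Control library (adjusted p = 0.07; 1.4e-06 to 0.07 over the alternatives). Its lower level in IDRmut than in WT (log2 fold change -0.20 ± 0.067, edgeR adjusted p = 0.0356) was lost under 8 of the 14 alternatives, the leaving out of any 1 library other than the second of IDRmut among them (8.7e-05 to 0.33).

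EBP and TM7SF2 were called in IDRmut and not in WT. EBP, the sterol isomerase, averaged 24.8 ± 1.21 CPM in IDRmut, 31.0 ± 0.586 CPM in WT and 30.4 ± 0.513 CPM in Control (mean ± SD, n = 2 each). It fell in IDRmut (log2 fold change -0.30 ± 0.067, edgeR adjusted p = 0.00273), gave 0.031 ± 0.063 (edgeR adjusted p = 0.75) in WT, and was lower in IDRmut than in WT (-0.33 ± 0.064, edgeR adjusted p = 0.00105). TM7SF2, a sterol reductase, averaged 32.1 ± 1.37 CPM in IDRmut, 27.1 ± 0.503 CPM in WT and 25.9 ± 0.111 CPM in Control. It rose by 0.31 ± 0.066 on the log2 scale (edgeR adjusted p = 0.0016) in IDRmut, gave 0.066 ± 0.065 (edgeR adjusted p = 0.478) in WT, and was higher in IDRmut than in WT (0.24 ± 0.062, edgeR adjusted p = 0.00748); that last call was lost with DESeq2 and without the first WT library (adjusted p = 0.066; 0.00045 to 0.066 over the alternatives). In IDRmut against WT these genes were therefore called in opposite directions.

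FDFT1, the squalene synthase, gave 0.083 ± 0.041 on the log2 scale (edgeR adjusted p = 0.133) in IDRmut and rose by 0.21 ± 0.040 (edgeR adjusted p = 0.000494) in WT. LSS, the lanosterol synthase, gave 0.023 ± 0.055 on the log2 scale (edgeR adjusted p = 0.796) in IDRmut and rose by 0.21 ± 0.053 (edgeR adjusted p = 0.00491) in WT. FDFT1 was lower in IDRmut than in WT (log2 fold change -0.13 ± 0.039, edgeR adjusted p = 0.0235), and so was LSS (-0.19 ± 0.052, edgeR adjusted p = 0.0128). Each of these calls between IDRmut and WT was lost with DESeq2 and with either WT library left out (adjusted p 0.0022 to 0.23 for FDFT1 and 0.00047 to 0.1 for LSS over the alternatives), that of LSS also without the second IDRmut library; the rise of LSS in WT was lost without the first Control library (0.00013 to 0.12).

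HSD17B7, a ketosteroid reductase at 7.95 ± 0.0703 CPM in IDRmut, 9.80 ± 0.337 CPM in WT and 7.80 ± 1.30 CPM in Control, rose in WT by 0.32 ± 0.12 on the log2 scale (edgeR adjusted p = 0.0409), a call lost with DESeq2 and without the second Control library and with either WT library left out (adjusted p 0.015 to 0.4 over the alternatives). Its value between IDRmut and WT, -0.30 ± 0.11 on the log2 scale (edgeR adjusted p = 0.0643), was called with either Control library left out (0.031 to 0.28). CYP51A1, the lanosterol demethylase, and NSDHL, a sterol dehydrogenase, were not called in any comparison. Genes on either strand, CYP51A1-AS1 among them, overlap 83.2% of the exon bases of CYP51A1.

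STARD4, which moves cholesterol between membranes, was at 41.6 and 41.6 CPM in IDRmut, 50.1 and 51.4 CPM in WT and 47.4 and 44.7 CPM in Control. The groups did not overlap, with WT highest and IDRmut lowest, the same order as INSIG1. It was lower in IDRmut than in WT (log2 fold change -0.29 ± 0.053, edgeR adjusted p = 0.000604). Against Control it gave -0.15 ± 0.056 on the log2 scale (edgeR adjusted p = 0.0549) in IDRmut and 0.14 ± 0.053 (edgeR adjusted p = 0.0495) in WT; the WT call was lost under 7 of the 14 alternatives, among them DESeq2, no filter on low counts and leaving out any 1 Control or WT library (adjusted p 0.012 to 0.33).

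Among the 10 fatty acid genes the changes ran both ways. In IDRmut, FADS1 rose and 4 fell (SCD, FADS2, ELOVL6 and ACSL3). In WT, 3 rose (FADS1, ACLY and ELOVL5) and 3 fell (SCD, ELOVL6 and ACSL3). The shares called were 50% in IDRmut and 60% in WT, beside 31.6% and 35.0% of all genes tested. Of those that reached 8 CPM, 39.2% and 42.3% were called. Summed over the 10 genes, the level was 4578 and 4387 CPM in IDRmut, 4519 and 4528 CPM in WT and 5076 and 5099 CPM in Control, and SCD alone made up most of the gap.

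SCD, the desaturase that makes oleate, was at 1900 and 1891 CPM in IDRmut, 1858 and 1850 CPM in WT and 2409 and 2397 CPM in Control. All ACK1 libraries lay below Control, and the replicates of each group were nearly equal. It fell to 0.789 of the Control level in IDRmut (log2 fold change -0.34 ± 0.030, edgeR adjusted p = 1.6e-07) and to 0.772 in WT (-0.37 ± 0.030, edgeR adjusted p = 3.7e-08), and the difference between IDRmut and WT lay within a 95% interval of -0.032 to 0.10.

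FASN, the fatty acid synthase, was at 924 and 761 CPM in IDRmut, 838 and 857 CPM in WT and 878 and 883 CPM in Control. The IDRmut libraries lay on either side of all the others. The log2 fold change was -0.064 ± 0.058 (edgeR adjusted p = 0.449) in IDRmut, with a 95% interval of -0.19 to 0.060, and -0.055 ± 0.058 (edgeR adjusted p = 0.507) in WT, with one of -0.18 to 0.068. Single libraries of IDRmut decided its value: against WT it was -0.15 without the first (adjusted p = 0.0002) and 0.12 without the second (adjusted p = 0.0018; 0.0002 to 0.99 over the 14 alternatives). Against Control it was -0.21 without the first (adjusted p = 1e-06; 1e-06 to 0.9 over the alternatives), and in WT against Control it was called without the first IDRmut library (0.044 to 0.89).

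FADS1 and FADS2, desaturases of polyunsaturated fatty acids, overlap on chromosome 11 on opposite strands (GENCODE 29, GRCh38). FADS1 was at 174 and 169 CPM in IDRmut, 195 and 194 CPM in WT and 130.5 and 132 CPM in Control. The groups did not overlap, in the order WT, IDRmut, Control. It rose 1.31-fold in IDRmut (log2 fold change 0.39 ± 0.039, edgeR adjusted p = 9.4e-07) and 1.48-fold in WT (0.56 ± 0.039, edgeR adjusted p = 4.5e-09), the largest rise of the 34 genes in WT, and was lower in IDRmut than in WT (-0.18 ± 0.038, edgeR adjusted p = 0.00179). FADS2 was at 215 and 188 CPM in IDRmut, 248 and 239.8 CPM in WT and 259 and 265 CPM in Control. Control was highest here, then WT, then IDRmut, without overlap. It fell in IDRmut (log2 fold change -0.38 ± 0.051, edgeR adjusted p = 2e-05), gave -0.10 ± 0.050 (edgeR adjusted p = 0.118) in WT, and was lower in IDRmut than in WT (-0.28 ± 0.050, edgeR adjusted p = 0.000541). The value in WT was called in a fit of those 2 groups alone, after correction for GC content and length, and with either IDRmut library left out (adjusted p 0.0023 to 0.39 over the alternatives). FADS2 covers 5.57% of the exon bases of FADS1 together with a microRNA gene.

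ELOVL6, which elongates palmitate, was at 142 and 142 CPM in IDRmut, 99.2 and 103 CPM in WT and 155 and 154 CPM in Control. WT stood far below the other groups, and IDRmut lay slightly below Control. In WT it fell to 0.655 of the Control level (log2 fold change -0.61 ± 0.040, edgeR adjusted p = 2.7e-09), the largest fall of the 34 genes beside that of SREBF1. In IDRmut the log2 fold change was -0.12 ± 0.040 (edgeR adjusted p = 0.0266), a call lost under 8 of the 14 alternatives, leaving out any 1 Control or WT library among them (adjusted p 0.015 to 0.13). It was 1.40-fold higher in IDRmut than in WT (log2 fold change 0.49 ± 0.040, edgeR adjusted p = 9.5e-08). ELOVL5, which elongates polyunsaturated chains, gave 0.057 ± 0.035 on the log2 scale (edgeR adjusted p = 0.238) in IDRmut and rose by 0.10 ± 0.035 (edgeR adjusted p = 0.0293) in WT. The value in IDRmut was called without the first IDRmut library (adjusted p 0.047 to 0.57 over the alternatives), and the WT call was lost under 6 of the 14, among them DESeq2 and leaving out any 1 Control or WT library (0.00099 to 0.23).

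ACSL3, which activates fatty acids at the endoplasmic reticulum, averaged 166 ± 7.56 CPM in IDRmut, 187 ± 3.22 CPM in WT and 203 ± 0.661 CPM in Control. It was the only one of the 34 genes called lower in all 3 comparisons, with -0.29 ± 0.041 on the log2 scale (edgeR adjusted p = 4.1e-05) in IDRmut, -0.12 ± 0.040 (edgeR adjusted p = 0.032) in WT and -0.17 ± 0.040 (edgeR adjusted p = 0.00476) in IDRmut against WT. The WT call was lost with upper-quartile scaling, with DESeq2, without the filter on low counts and when any 1 Control or WT library was left out (adjusted p 0.0014 to 0.22), and the last was lost without the second WT library (6.4e-05 to 0.098).

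Of the 3 suppliers of acetyl-CoA and malonyl-CoA, ACLY was called and ACSS2 and ACACA were not. ACLY, which splits citrate, rose in WT by 0.15 ± 0.038 on the log2 scale (edgeR adjusted p = 0.00621) and was lower in IDRmut than in WT (-0.11 ± 0.038, edgeR adjusted p = 0.0353). The first call was lost without the first Control library and with either WT library left out (adjusted p 0.00016 to 0.14), and the second was lost under 6 of the 14 alternatives, among them DESeq2, a fit of those 2 groups alone and leaving out either WT library or the second IDRmut library (0.0037 to 0.19). ACSS2, which uses acetate, gave -0.0017 ± 0.072 on the log2 scale (edgeR adjusted p = 0.99) in IDRmut and -0.16 ± 0.071 (edgeR adjusted p = 0.0849) in WT against Control. ACACA, the carboxylase, gave -0.076 ± 0.036 on the log2 scale (edgeR adjusted p = 0.126) in IDRmut and -0.092 ± 0.036 (edgeR adjusted p = 0.0551) in WT; in WT, both genes were called without the first IDRmut library and ACACA also without the second (adjusted p 0.035 to 0.43 for ACSS2 and 0.0055 to 0.39 for ACACA over the alternatives).

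**Figure D3:**
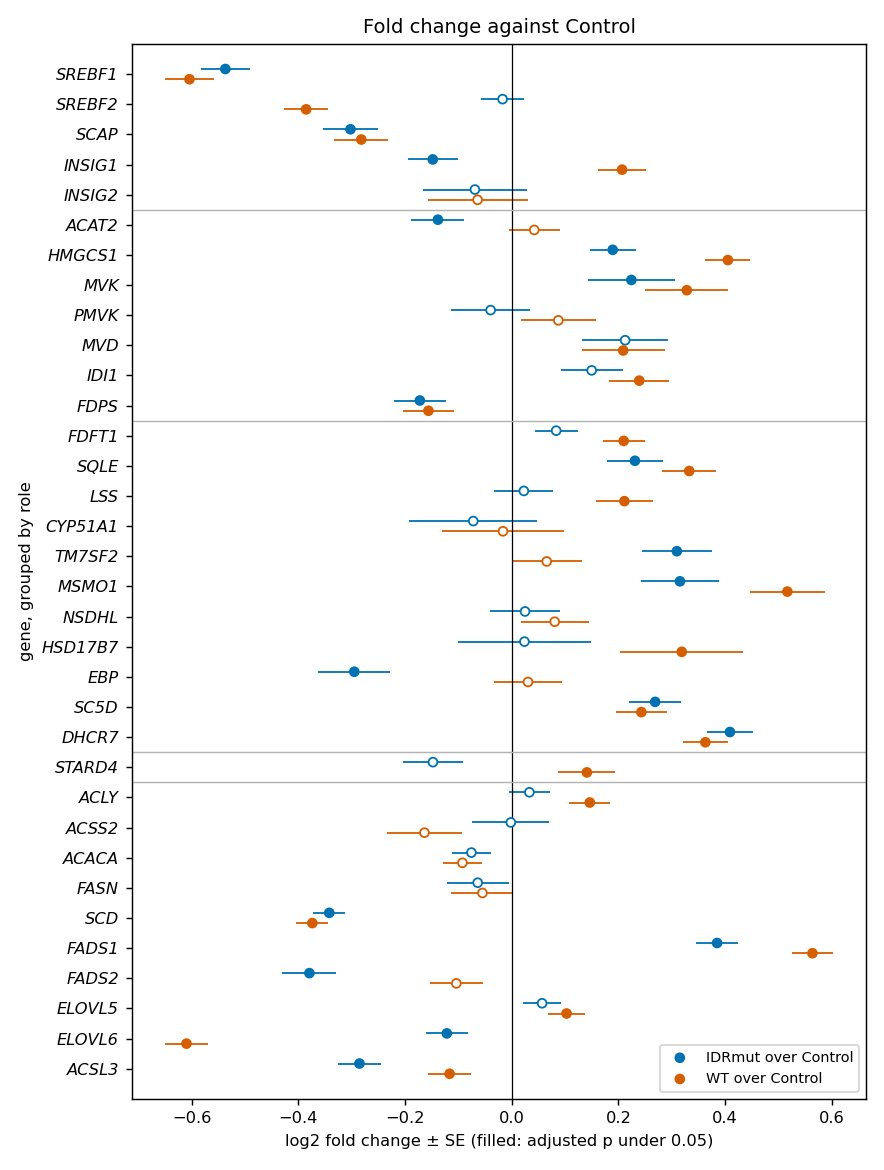
Log2 fold change against Control (horizontal axis) with its SE (bars) for the 34 genes, grouped by role, for IDRmut (blue, upper point of each pair) and WT (orange, lower point); filled points passed an adjusted p under 0.05. The points of SREBF1, SCAP, SCD and DHCR7 lie close together in both groups, whereas those of SREBF2, INSIG1, EBP, FADS2 and ELOVL6 lie apart.

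IDRmut and WT were compared directly to see which of these genes differ between the ACK1 forms. The 3 genes higher in IDRmut were ELOVL6 (0.49 on the log2 scale), SREBF2 (0.37) and TM7SF2 (0.24). The 12 lower in IDRmut ran from INSIG1 (-0.36), EBP (-0.33), STARD4 (-0.29) and FADS2 (-0.28) to ACLY (-0.11), and took in 4 genes of the sterol branch, 2 of the mevalonate branch and 4 of the fatty acid group. SREBF1, SCAP, FDPS and SCD were called lower than Control in both ACK1 groups and were not called between IDRmut and WT; MVK, SQLE, SC5D and DHCR7 were called higher in both and likewise not called between them. The 7 genes called in no comparison were INSIG2, PMVK, CYP51A1, NSDHL, ACSS2, ACACA and FASN.

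By group means, the order WT, IDRmut, Control from high to low was the most frequent, in 12 of the 34 genes, with HMGCS1, SQLE, MSMO1 and FADS1 among them. Control stood highest in 13 genes, followed by WT and then IDRmut in 7 of them and by IDRmut and then WT in 6. WT stood highest and IDRmut lowest in 5 (INSIG1, ACAT2, PMVK, EBP and STARD4), and IDRmut highest and Control lowest in 4.

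**Figure D4:**
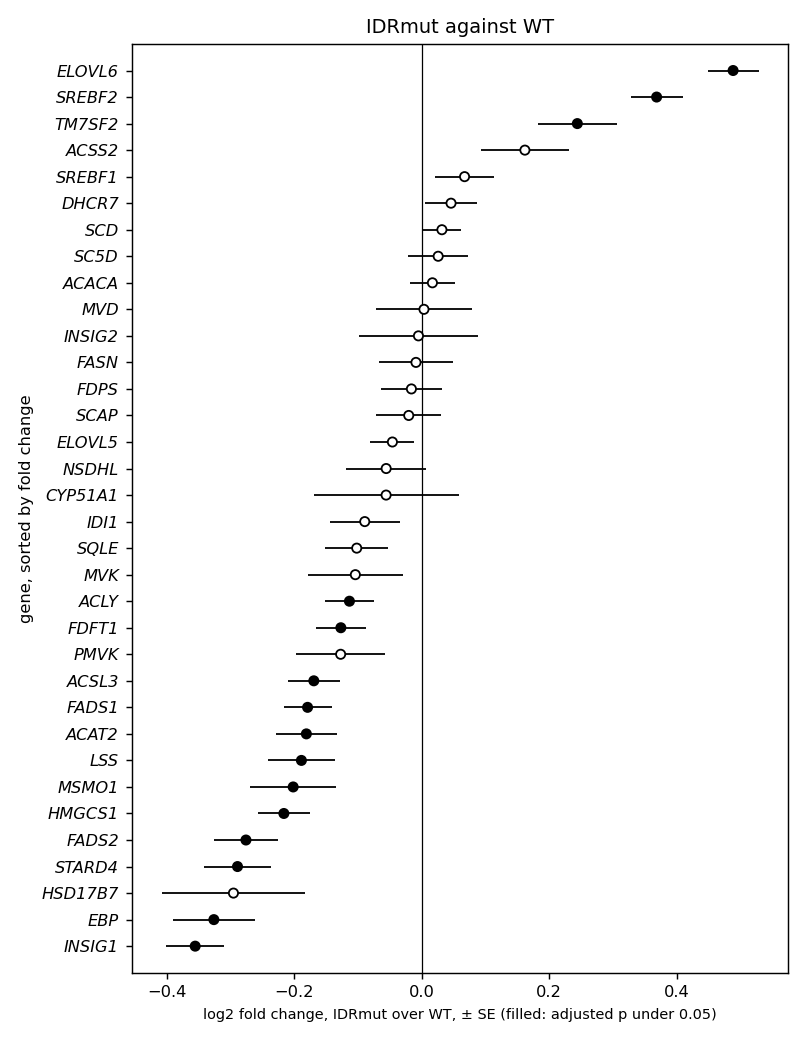
Log2 fold change of IDRmut over WT (horizontal axis) with its SE (bars) for the 34 genes, sorted; filled points passed an adjusted p under 0.05. ELOVL6 and SREBF2 stand at the high end with 0.49 and 0.37, and INSIG1 and EBP at the low end with -0.36 and -0.33.

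Per length, in CPM per kilobase of exon (RPKM), SCD was the most abundant of the 34 genes, with mean levels of 353 in IDRmut, 346 in WT and 448 in Control. ELOVL5 followed with 119, 123 and 114 RPKM in the same groups, then FASN with 90.0, 90.5 and 94.0 RPKM and ACLY with 57.3, 62.0 and 56.0 RPKM. HSD17B7 was the least abundant in each group, with 1.66, 2.05 and 1.63 RPKM, again for IDRmut, WT and Control. SREBF1 had a lower mean than SREBF2 in IDRmut (32.3 and 39.8 RPKM), nearly the same mean in WT (30.8 RPKM each) and a higher one in Control (46.9 and 40.3 RPKM).

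Neighbouring parts of lipid metabolism, listed from general knowledge, gave the following counts, each with its share of the genes tested. For comparison, 31.6% of all genes tested were called in IDRmut against Control, 35.0% in WT against Control and 26.5% in IDRmut against WT. Among genes that reached 8 CPM the shares were 39.2%, 42.3% and 33.9%. Of 13 genes for SREBP processing and turnover, 2 rose and 4 fell in IDRmut (46.2% called), and 7 fell and none rose in WT (53.8%). RNF145, a ubiquitin ligase of the endoplasmic reticulum, gave -0.065 ± 0.035 on the log2 scale (edgeR adjusted p = 0.186) in IDRmut and fell in WT (-0.29 ± 0.035, edgeR adjusted p = 5e-06). RNF139, a ligase of the same membrane, rose by 0.22 ± 0.049 on the log2 scale (edgeR adjusted p = 0.00202) in IDRmut and gave -0.10 ± 0.049 (edgeR adjusted p = 0.116) in WT. TMEM97, a sterol-responsive membrane protein, fell by 0.16 on the log2 scale in IDRmut (edgeR adjusted p = 0.0155) and by 0.26 in WT (edgeR adjusted p = 0.000368). Between IDRmut and WT, 5 of the 13 were higher in IDRmut and 1 lower (46.2%).

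Of 11 genes for sterol efflux, storage and the LXR response, 1 rose and 2 fell in IDRmut (27.3%), and 2 rose and 2 fell in WT (36.4%). These shares are near those of all genes tested. ABCA1, the cholesterol exporter, averaged 86.6 ± 5.59 CPM in IDRmut, 74.6 ± 1.24 CPM in WT and 129 ± 0.974 CPM in Control (SD, n = 2 each). It fell to 0.671 of the Control level in IDRmut (log2 fold change -0.57 ± 0.048, edgeR adjusted p = 8e-08) and to 0.578 in WT (-0.79 ± 0.048, edgeR adjusted p = 8.6e-10). SOAT1, which esterifies cholesterol for storage, fell in IDRmut (log2 fold change -0.34 ± 0.051, edgeR adjusted p = 6.8e-05) and gave 0.021 ± 0.048 (edgeR adjusted p = 0.774) in WT. MYLIP, an LXR-induced ubiquitin ligase, gave 0.10 ± 0.086 on the log2 scale (edgeR adjusted p = 0.408) in IDRmut and rose in WT (0.43 ± 0.080, edgeR adjusted p = 0.000391).

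Of 12 isoprenoid genes, which use farnesyl diphosphate for purposes other than sterol, RABGGTB alone rose in IDRmut (log2 fold change 0.30 ± 0.040, edgeR adjusted p = 1.7e-05), and 1 fell in WT. The share called was 8.33% in each, below that of all genes tested. RABGGTB, a subunit of a prenyltransferase, and FNTA, a subunit of another, were higher in IDRmut than in WT by 0.26 and 0.23 on the log2 scale (edgeR adjusted p = 0.000103 and edgeR adjusted p = 0.00916). Of 12 genes for glycerolipid synthesis and NADPH supply, 11 were tested. Of these, 1 rose and 3 fell in IDRmut (36.4%), and 4 rose and 3 fell in WT (63.6%). FABP5 was listed at 0 in every library. ME1, a malic enzyme that yields NADPH, was at 3.39 and 2.96 CPM in IDRmut, 1.57 and 1.43 CPM in WT and 0.71 and 0.861 CPM in Control, without overlap of the groups, and rose by 2.01 ± 0.25 on the log2 scale (edgeR adjusted p = 7.8e-06) in IDRmut and 0.92 ± 0.28 (edgeR adjusted p = 0.0152) in WT.

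PGD, an enzyme of the pentose phosphate pathway that yields NADPH, fell by 0.26 on the log2 scale in IDRmut (edgeR adjusted p = 0.000141) and by 0.18 in WT (edgeR adjusted p = 0.00298). Of 13 genes of fatty acid oxidation, 2 rose and 1 fell in IDRmut (23.1%), and 3 rose and 3 fell in WT (46.2%). The shares over all genes tested were 31.6% and 35.0%, and with only 13 genes the gaps are not read as a result. ACADVL, the dehydrogenase for very long chains, rose by 0.31 ± 0.039 on the log2 scale (edgeR adjusted p = 8.8e-06) in IDRmut and 0.14 ± 0.039 (edgeR adjusted p = 0.0112) in WT. HADH, a later enzyme of the cycle, gave -0.14 ± 0.056 on the log2 scale (edgeR adjusted p = 0.0638) in IDRmut and fell in WT (-0.42 ± 0.056, edgeR adjusted p = 1.6e-05). CPT1A, the gate of fatty acid entry into mitochondria, gave -0.10 ± 0.038 on the log2 scale (edgeR adjusted p = 0.052) in IDRmut and rose in WT (0.16 ± 0.037, edgeR adjusted p = 0.00243).

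Of the 12 squamous and epithelial markers 9 were tested, TP63, SOX2, KRT5, KRT14, KRT6A, DSG3, KRT8, KRT18 and KRT19, while EPCAM, CDH1 and PKP1 were at 0 to 4 counts in every library and did not pass the filter. The summed level of the 12 squamous and epithelial markers was 1569 and 1438 CPM in IDRmut, 1015 and 988 CPM in WT and 1871 and 1863 CPM in Control. KRT14, a basal keratin, made up most of that sum, with 940.5 ± 74.7 CPM in IDRmut, 622 ± 20.2 CPM in WT and 1424 ± 13.9 CPM in Control (SD, n = 2 each), and it and SOX2 fell in both ACK1 groups. Most other tested markers moved the other way in IDRmut: 6 of the 9 rose and 2 fell in IDRmut against Control (88.9% called). In WT against Control 4 rose and 4 fell (88.9%). Between IDRmut and WT, 8 of the 9 were called higher in IDRmut and 1 lower. KRT8, a simple epithelial keratin, averaged 72.4 ± 5.02 CPM in IDRmut, 28.2 ± 0.828 CPM in WT and 12.0 ± 0.943 CPM in Control. It rose by 2.59 ± 0.076 on the log2 scale (edgeR adjusted p = 2e-13) in IDRmut and by 1.22 ± 0.084 (edgeR adjusted p = 4.8e-09) in WT. KRT18 was the gene lower in IDRmut than in WT, at 7.81 and 6.37 CPM in IDRmut, 10.3 and 11.2 CPM in WT and 1.52 and 1.77 CPM in Control. KRT6A averaged 96.9 ± 4.51 CPM in IDRmut, 45.2 ± 1.57 CPM in WT and 28.6 ± 0.114 CPM in Control and rose by 1.76 ± 0.057 on the log2 scale (edgeR adjusted p = 5.9e-13) in IDRmut. KRT5 averaged 28.9 ± 0.798 CPM in IDRmut, 8.31 ± 0.532 CPM in WT and 13.7 ± 1.31 CPM in Control; it rose in IDRmut (log2 fold change 1.07 ± 0.084, edgeR adjusted p = 4.1e-08) and fell in WT (-0.71 ± 0.099, edgeR adjusted p = 2.4e-05). Of 14 markers of other cell types 4 passed the filter, CD3E was at 0, and their summed level, nearly all COL1A2, was 918 and 857 CPM in IDRmut, 673 and 681 CPM in WT and 826 and 845 CPM in Control. Their part in the changes of the lipid genes was not tested.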

How the data were processed

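Polyadenylated RNA of H2170 cells was sequenced in 6 libraries, 2 per group. The deposited values are raw counts per gene, not normalized by the authors. HISAT2 2.2.1, SAMtools 1.14, featureCounts 2.0.1 and build GRCh38 are named in the submitters' processing notes; neither annotation release nor strand setting was stated in the sources used here. Names were matched to 61474 of 61487 gene IDs, and exon lengths, positions and overlaps came from GENCODE release 29.

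edgeR 4.0.16 (R 4.3.3) kept 16591 genes with filterByExpr (minimum count 10, minimum total 15), holding 99.8% to 99.9% of the counts. TMM set the scaling, and all 6 libraries entered a single quasi-likelihood fit of group means (biological coefficient of variation 0.0294, 3 residual and 13.5 prior degrees of freedom). Values of p for IDRmut against Control, WT against Control and IDRmut against WT were adjusted over all genes tested (Benjamini-Hochberg), and a call needs an adjusted p under 0.05. CPM are counts per 1000000 of the TMM-scaled library, RPKM are CPM per kilobase of exon, and intervals are 95%. Library totals ran from 19128111 to 33540998 counts; without molecular identifiers, reads are not separate molecules. Replicates differed by more than counting error (chi-square per gene 1.55 to 3.65); no pair was treated as 1 library deposited again.

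Alternatives were upper-quartile and RLE scaling, DESeq2 1.42.0, no filter and a stricter filter, a fit of 2 groups alone, a replicate block, correction for GC content and length, and leaving out each library. The 34 genes and the further gene lists were chosen with earlier results of these data known. Values of all 6 libraries are given for SREBF1, SREBF2, INSIG1, HMGCS1, SQLE, FASN and SCD and for up to 3 further genes per role with the smallest adjusted p; of each further list, up to 3 genes with the smallest adjusted p are named, less some that are not reported here. Values of KRT5, KRT6A, KRT8, KRT14 and KRT18 are given after they were seen. Promoter windows came from RefSeq (GRCh38.p14), and the motif search was written for this set.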

Additional observations from a re-analysis of the deposited data

Results flagged for a closer look

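INSIG1, which holds back the SREBP precursors, was called in opposite directions against the same Control libraries in the fit of all 6 libraries. The call of a fall in IDRmut was lost under 4 of the 14 alternatives. These were upper-quartile scaling, DESeq2, a fit of those 2 groups alone and leaving out the first Control library. The calls of WT against Control and of IDRmut against WT held under all of them. It was at 72.8 and 74.7 CPM in IDRmut, 95.4 and 93.5 CPM in WT and 83.6 and 79.8 CPM in Control. The test of the difference itself, IDRmut against WT, gave a log2 fold change of -0.36 ± 0.045 (edgeR quasi-likelihood test, Benjamini-Hochberg adjusted p = 1.6e-05), and both IDRmut libraries lay below both WT libraries. The TNK2 level also differed between these groups, and its part in the difference was not tested.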

How the results depend on the processing

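Over the 34 genes and 14 alternatives no call changed direction. In IDRmut against Control 12 of the 18 calls held under every alternative, in WT against Control 14 of 23 and in IDRmut against WT 8 of 15. DESeq2 called 3290 genes in IDRmut against Control, 3649 genes in WT against Control and 2534 in IDRmut against WT, against 5237, 5807 and 4396 with edgeR, and 6 in place of 10 of the 34 genes fell in IDRmut with DESeq2. Upper-quartile scaling gave a median log2 fold change of the 34 genes of 0.022 in IDRmut against Control and 0.12 in WT against Control. With 1 library left out in turn, IDRmut against Control gave a total of genes called of 3451 to 5522, a higher count among the 34 of 6 to 9, a lower count of 6 to 10, a median of -0.029 to 0.028. WT against Control gave a total of genes called of 3974 to 7028, a higher count among the 34 of 10 to 16, a lower count of 5 to 11, a median of 0.075 to 0.091. IDRmut against WT gave a total of genes called of 2590 to 4761, a higher count among the 34 of 2 to 5, a lower count of 6 to 12, a median of -0.11 to -0.069. Where a group was left with 1 library, its spread was taken from the other groups.

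Signs that changed belonged to genes not called in the fit of all 6 libraries, and the cause was not tested; FASN alone was called with either sign, in IDRmut against WT with 1 or the other IDRmut library left out. With upper-quartile scaling the log2 fold change was 0.016 for CYP51A1 in WT against Control, 0.014 for SREBF2 in IDRmut against Control and 0.030 for ACSS2 in IDRmut against Control. With correction for GC content and length the log2 fold change was -0.0060 for EBP in WT against Control, -0.0063 for NSDHL in IDRmut against Control, 0.0030 for SCAP in IDRmut against WT, 0.0056 for INSIG2 in IDRmut against WT and 0.00039 for FASN in IDRmut against WT. With no filter on low counts the log2 fold change was 0.00079 for ACSS2 in IDRmut against Control and -0.0026 for MVD in IDRmut against WT. With a filter of 1 CPM in 2 libraries the log2 fold change was 0.0069 for ACSS2 in IDRmut against Control. With a fit of the 2 groups alone the log2 fold change was 0.00086 for ACSS2 in IDRmut against Control. With the replicate block the log2 fold change was -0.0024 for MVD in IDRmut against WT. With 1 library left out, the log2 fold changes in IDRmut against Control ran from -0.17 to 0.033 for INSIG2, from -0.039 to 0.082 for LSS, from -0.030 to 0.075 for NSDHL, from -0.0088 to 0.070 for ACLY, from -0.23 to 0.074 for CYP51A1, from -0.14 to 0.21 for HSD17B7, from -0.065 to 0.057 for ACSS2, from -0.066 to 0.028 for SREBF2, from -0.096 to 0.014 for PMVK, from -0.21 to 0.068 for FASN. With 1 library left out, the log2 fold changes in WT against Control ran from -0.16 to 0.039 for INSIG2, from -0.12 to 0.084 for CYP51A1. With 1 library left out, the log2 fold changes in IDRmut against WT ran from -0.071 to 0.061 for INSIG2, from -0.14 to 0.14 for MVD, from -0.0087 to 0.062 for SC5D, from -0.010 to 0.049 for ACACA, from -0.093 to 0.054 for SCAP, from -0.058 to 0.029 for FDPS, from -0.11 to 0.018 for NSDHL, from -0.15 to 0.12 for FASN, from -0.012 to 0.15 for SREBF1, from -0.21 to 0.093 for CYP51A1.

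Pairing by replicate number was not seen. Same-numbered libraries deviated from their group means with correlations of -0.129 between IDRmut and WT, -0.040 between IDRmut and Control and -0.021 between WT and Control. With 2 libraries a group, these values cannot show whether same-numbered libraries were handled together. With the replicate block the calls were 4839 genes in IDRmut against Control, 5440 genes in WT against Control, 3967 genes in IDRmut against WT. With the block, calls were lost for ACAT2 and MVK in IDRmut against Control, ELOVL5 and STARD4 in WT against Control, and ACLY and MSMO1 in IDRmut against WT. RLE scaling, the stricter filter and the GC correction moved no count of the 34 genes by more than 1.5 times. With 2 libraries a group, the fit had 3 residual degrees of freedom.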
